A study of Mus musculus with 30 samples.

Results

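The retinas compared here were those of *E168d2neo/+* mice and of wild-type (WT) mice at postnatal day 21 (P21), with 3 libraries in each group, 6 of the 30 libraries of the series. A gene entered the comparison when every library of at least 1 group was at 5 CPM or more, as was so for 11912 of the 12573 listed genes. The question was which genes differed from WT when a mutant CRX protein was made at a reduced level beside the normal one. CPM, the reads on a gene as a share of those counted on all genes of a library, is not divided by gene length, so levels are compared between libraries and not between genes.

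CRX is a homeodomain transcription factor of photoreceptors. Together with the rod factors NRL and NR2E3 it drives the genes for the opsins and the rest of the light-response machinery, and it acts in cones as well as in rods. Mutations in human *CRX* cause dominant cone-rod dystrophy and Leber congenital amaurosis. In a photoreceptor, light absorbed by an opsin activates transducin, transducin activates a phosphodiesterase that breaks down cGMP, and the fall in cGMP closes a cation channel of the outer segment. Guanylate cyclases and their activating proteins then rebuild cGMP.

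The *E168d2* allele is a knock-in frameshift mutation that truncates CRX so that the protein still binds DNA but does not activate transcription. *E168d2neo* carries the same mutation with a *neomycin* cassette kept in an intron, and less of the mutant protein is made from it. The mice were heterozygous, so a WT *Crx* allele was present in every library, and the mutation was in the germ line rather than limited to one cell type. All mice were backcrossed to C57BL6/J, the WT mice at P21 were littermates of the mutants, and each library was stated to pool 4 whole retinas of 1 male and 1 female mouse. The other mutant used below, *E168d2/+*, has the same truncation without the cassette, and it was compared at the same age. WT and *E168d2neo/+* retinas at P10 were used to compare ages.

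The 6 libraries held 20.03 to 25.997 M reads on genes, by the step between their CPM values, so that 5 CPM stood for 100 to 130 reads and a gene with no read could still be at up to 0.115 to 0.150 CPM. Among them 2 libraries stood apart. In *E168d2neo/+* replicate C the 10 crystallins, structural proteins of the lens, summed to 13210 CPM, or 1.32% of all reads on genes, against 36.4 to 61.2 CPM in the other 5 libraries. WT replicate A held 3.05 CPM of *Xist*, the RNA of the inactive X chromosome in females, against 1126 to 1638 CPM in the other 5 libraries, while its Y-linked genes summed to 144 CPM within their range of 114 to 164 CPM. That library went against the stated mixture of a male and a female. All 14 genes called higher below were still called without replicate C, without WT replicate A and without both, and of the 66 called lower 63, 66 and 66 were.

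*Crx* itself (7:16451296-16465317 of mm9, minus strand) was at 1151, 1149 and 1107 CPM in WT and at 1128, 1069.8 and 1212 CPM in *E168d2neo/+*. The groups overlapped, and the difference was -0.0005 ± 0.050 in log2 (SE, limma), with a false discovery rate (FDR) of 0.997. Reads of the mutant and WT alleles were counted together, so this level checks neither the genotype nor the share of mutant transcript. At P10 *Crx* was 0.23 higher in log2 in *E168d2neo/+* (FDR 0.0107).

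At P21 *E168d2neo/+* retinas held less RNA of the cone light response, slightly less of the rod light response, and almost none of a few transcripts such as *Zan*, while collagen IV chains and the channel subunit *Kcng1* were among the fewer transcripts that were higher. At a 2-fold limit 80 genes were called, 0.672% of those tested, of which 66 were lower (0.554%) and 14 were higher (0.118%). The test was limma on log2(CPM + 0.1), two-sided, with the FDR adjusted over all 11912 genes by the Benjamini-Hochberg method, and a call needed an FDR of 0.05 or less and a change of 2-fold or more. The 80 genes had SEs of 0.050 to 0.34 in log2, and in each of them the 3 mutant libraries lay outside the range of the 3 WT libraries, as they did in 33.1% of all genes tested. Without the fold limit 1486 genes (12.5%) passed, 728 lower (6.11%) and 758 higher (6.36%). When all genotypes at P21 were put in 1 fit and shared its spread, 54 genes were called lower and 14 higher, and without the fold limit 331 were lower and 260 higher, so that the smaller changes below often passed only in the fit of WT and *E168d2neo/+*. The balance of these small changes moved with the scaling, the share that was lower being 49.0% as deposited, 65.9% after centring on the median ratio, 58.2% after quantile normalization and 43.8% with the crystallins taken out. In the fit of all P21 genotypes the log2 differences were the same and only the spread changed. That spread takes in *E168d2/+* replicate B, which stood apart as given below. It also takes in libraries of another *Crx* mutant, *R90W/+*, with crystallins at up to 2.80% of reads. Their part in the smaller counts of that fit was not tested. The limit of 2-fold ran between *Alpl* at -1.0002 and *Ripk4* at 0.9958 in log2. Each library is a pool of retinas, so the FDRs measure the spread between pools, and an exact permutation test of 3 against 3 could not go below p = 0.1.

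**Figure D1:**
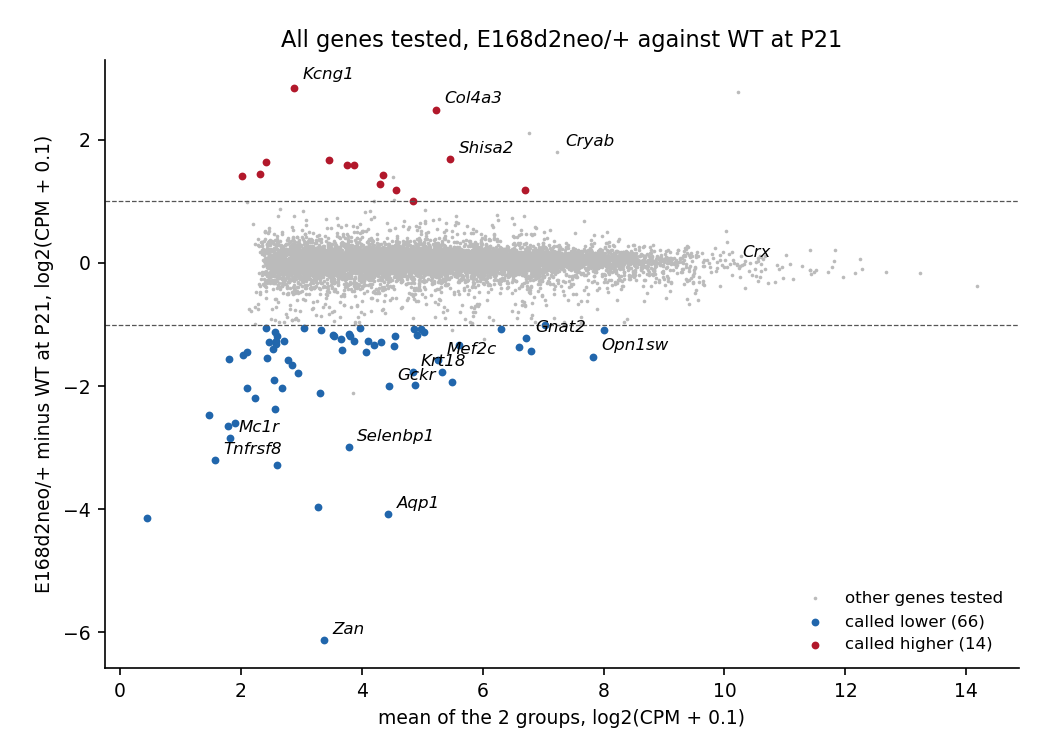
Difference between *E168d2neo/+* and WT at P21 (vertical axis, log2 of CPM + 0.1) against the mean level of the groups (horizontal axis, log2 of CPM + 0.1) for the 11912 genes tested. Coloured points are the 66 genes called lower and the 14 called higher; the falls reach -6.12 in log2 and the rises reach 2.85.

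The genes of cone phototransduction were lower as a group. Of 11 members tested, 9 fell, 1 rose and 1 did not pass the test at an FDR of 0.05, with a median of -0.87 in log2 against 0.04 over all genes tested. In the fit of all P21 genotypes 3 of the 11 were lower and 1 was higher, and 2 were called at the 2-fold limit in place of 4. Summed over the 11 members, CPM ran from 1873 to 1977 in WT and from 1177 to 1225 in *E168d2neo/+*. In whole-retina RNA, fewer cones and less of these transcripts per cone cannot be told apart.

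*Opn1sw*, the short-wavelength cone opsin, was at 377, 423 and 349 CPM in WT and at 139, 117 and 144 CPM in *E168d2neo/+*. The groups were far apart, and the mutant mean was 34.9% of WT (-1.52 ± 0.082 in log2, FDR 9.49e-07). *Opn1mw*, the medium-wavelength cone opsin, was at 229, 222 and 229 CPM in WT and 120.3, 113 and 118 CPM in the mutant, a fall of just under 2-fold (-0.95 ± 0.040, FDR 1.83e-07). *Gnat2*, the alpha subunit of cone transducin, was at 164, 164 and 156 CPM against 72.9, 65.05 and 69.7 CPM (-1.22 ± 0.050, FDR 1.41e-07).

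Downstream of transducin, *Pde6h*, the inhibitory subunit of the cone phosphodiesterase, was at 117, 110.4 and 117 CPM in WT and 58.8, 50.2 and 54.04 CPM in the mutant (-1.08 ± 0.059, FDR 9.55e-07). Its catalytic partner *Pde6c* fell less, from 145, 139.9 and 142 CPM to 108, 108 and 106 CPM (-0.41 ± 0.038, FDR 5.29e-05). The 2 subunits of the cone cGMP-gated channel went opposite ways. *Cnga3* was at 15.8, 17.8 and 18.8 CPM in WT and 7.96, 7.69 and 7.13 CPM in the mutant (-1.19 ± 0.092, FDR 1.34e-05), while *Cngb3* was at 23.1, 25.3 and 24.8 CPM in WT and 44.2, 44.4 and 44.6 CPM in the mutant (0.86 ± 0.056, FDR 3.32e-06), with no overlap in either case.

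*Arr3*, the cone arrestin that shuts off activated opsin, was at 242, 279 and 285 CPM in WT and 159, 135 and 145 CPM in the mutant (-0.87 ± 0.071, FDR 1.79e-05). The transducin subunits *Gngt2* (-0.69 ± 0.067, FDR 7.08e-05) and *Gnb3* (-0.23 ± 0.048, FDR 0.0103) also fell, *Gnb3* the least of the 9. *Slc24a2*, the cone sodium-calcium-potassium exchanger, differed by 0.15 ± 0.049 in log2 with an FDR of 0.0649.

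**Figure D2:**
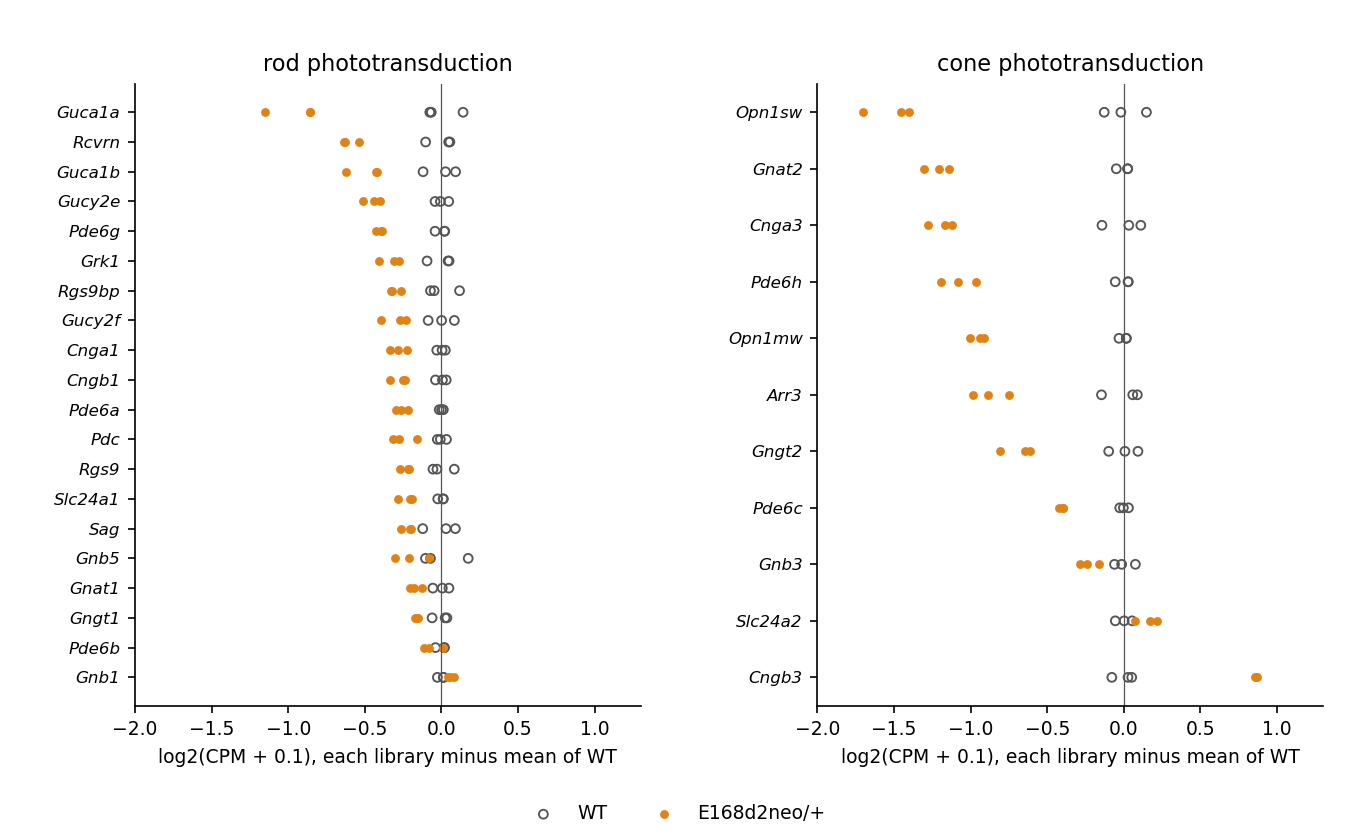
Level of 20 genes of rod phototransduction (left) and of the 11 of cone phototransduction (right) at P21 in every library, as log2 of CPM + 0.1 minus the WT mean of that gene, with open circles for the 3 WT and filled circles for the 3 *E168d2neo/+* libraries. The cone genes spread from *Opn1sw*, with a mean of -1.52, to *Cngb3*, with a mean of 0.86, and among the rod genes *Guca1a* lies lowest with a mean of -0.96.

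The genes of rod phototransduction were lower by smaller amounts. Of 21 members tested, 17 fell and none rose, and none was called at the 2-fold limit, with a median of -0.28 in log2 (13 fell and the median was -0.22 after quantile normalization). In the fit of all P21 genotypes 1 of the 21 was lower.

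*Gnat1*, the rod transducin alpha subunit, was at 9788, 10527 and 10217 CPM in WT and 9333, 8969 and 8828 CPM in the mutant, and its difference of -0.17 ± 0.059 did not pass the test (FDR 0.0873), although the groups did not overlap. *Pde6b*, a catalytic subunit of the rod phosphodiesterase, was at 2049.5, 2049 and 1969 CPM and 2033, 1867 and 1912 CPM with overlapping groups (FDR 0.421).

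The largest falls of this list were in *Guca1a*, *Rcvrn*, *Guca1b*, *Gucy2e* and *Pde6g*, and the part of rods and of cones in them was not measured. *Guca1a*, a guanylate cyclase activator used by rods and cones, was at 497, 431 and 428 CPM in WT and 249, 203 and 248 CPM in the mutant (-0.96 ± 0.082, FDR 2.71e-05). *Rcvrn*, recoverin, a calcium sensor that tunes the shut-off of the light response, was at 862, 957 and 962 CPM against 598, 638 and 597 CPM (-0.60 ± 0.051, FDR 2.57e-05). *Guca1b*, the other cyclase activator (-0.49 ± 0.066, FDR 0.000787), the cyclase *Gucy2e* (-0.45 ± 0.043, FDR 5.70e-05) and *Pde6g*, the rod phosphodiesterase inhibitor (-0.40 ± 0.040, FDR 7.90e-05), fell too.

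In the visual cycle, which returns all-trans retinal to 11-cis retinal, 3 of 7 photoreceptor members fell and none rose. *Rdh12*, a retinol dehydrogenase of the photoreceptor inner segment, was at 382, 360.4 and 368 CPM in WT and 239, 243 and 246 CPM in the mutant (-0.61 ± 0.038, FDR 2.25e-06). *Rdh8*, the dehydrogenase of the outer segment, was at 113, 112 and 114 CPM against 88.5, 93.2 and 86.1 CPM (-0.34 ± 0.043, FDR 0.000466). *Abca4*, the retinoid transporter of the disc rims, was at 1604, 1735 and 1682 CPM against 1351, 1363 and 1373 CPM (-0.30 ± 0.043, FDR 0.00126). The groups did not overlap in these 3 genes, while *Rbp3*, the retinoid-binding protein of the interphotoreceptor matrix, differed by -0.09 ± 0.048 (FDR 0.249).

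The largest falls were not in phototransduction genes. *Zan* (5:137819865-137918292 of mm9, minus strand), which encodes zonadhesin, known as a sperm protein, was at 88.9, 77.3 and 93.1 CPM in WT and at 1.01, 1.27 and 1.15 CPM in *E168d2neo/+*. The groups were far apart, with the mutant mean at 1.32% of WT (-6.12 ± 0.11, FDR 1.78e-10). *Aqp1* (6:55286426-55298549), a water channel, was at 81.4, 88.6 and 96.99 CPM in WT and 5.26, 4.39 and 5.899 CPM in the mutant (-4.08 ± 0.10, FDR 5.51e-09). *Selenbp1* (3:94736978-94748680), a selenium-binding protein, was at 45.99, 35.7 and 34.5 CPM against 4.53, 4.35 and 5.42 CPM (-2.99 ± 0.12, FDR 1.41e-07).

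Low genes made up the rest of the top 10. *Tnfrsf8*, the receptor CD30 of the TNF receptor superfamily, was at 6.68, 8.29 and 11.7 CPM in WT and 0.82, 0.654 and 1.15 CPM in the mutant (-3.20 ± 0.24, FDR 9.03e-06). *Mc1r*, the melanocortin receptor known from melanocytes, was at 9.46, 9.29 and 9.09 CPM against 1.25, 0.885 and 1.58 CPM (-2.84 ± 0.19, FDR 3.61e-06). The pseudogene *Olfr1372-ps1*, which is on the study's list of cone markers, was at 6.19, 5.09 and 5.42 CPM in WT and 0.241, 0.154 and 0.277 CPM in the mutant (-4.14 ± 0.22, FDR 9.49e-07). *A930006I01Rik* (-3.97 ± 0.14), *Gm15983* (-3.28 ± 0.12), *Gm15857* (-2.64 ± 0.16) and *Gm11961* (-2.60 ± 0.16) completed the list without overlap between groups, with FDRs of 5.31e-08, 5.92e-08, 1.90e-06 and 2.25e-06. *Gm15857* overlaps *Wdr66* (-2.11) on the opposite strand, and since the counting is not stated to use strand, the reads of these genes cannot be told apart.

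Of the 66 genes called lower, 24 were on the study's list of rod-enriched genes, which held 2.16% of the genes tested, and 12 on its list of cone-enriched genes, which held 3.06%, both drawn from published WT and *Nrl*-deficient retinas, and 30 were on neither. Over the whole rod-enriched list 125 of 257 genes fell and 26 rose, with a median of -0.23, and in the fit of all P21 genotypes 55 were lower and 14 higher. Over the cone-enriched list 44 of 364 fell and 63 rose, with a median of 0.06 against 0.04 over all genes tested, and in that fit 25 were lower and 30 higher. The study's 9 cone markers that could be tested had a median of -0.95, with 8 lower (3 in the fit of all P21 genotypes) and *Gulo*, an enzyme of ascorbate synthesis, higher (0.31 ± 0.063, FDR 0.0102). Its 10 rod markers had a median of -0.17, with 5 lower and 1 higher, and none either way in that fit.

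Among photoreceptor transcription factors 8 of 25 tested fell and 4 rose (4 and 3 in the fit of all P21 genotypes), with a median of 0.02. *Mef2c*, a MADS-box factor (13:83643033-83806684), was at 66.3, 63.7 and 66.8 CPM in WT and 27.9, 17.7 and 21.5 CPM in the mutant (-1.57 ± 0.13, FDR 1.79e-05). *Ppara*, a nuclear receptor that activates fatty acid oxidation (15:85565413-85633249), was at 21.1, 16.6 and 20.2 CPM against 7.72, 7.85 and 8.67 CPM (-1.24 ± 0.10, FDR 1.99e-05). These 2 were the only factors of the list called at the 2-fold limit.

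Among the factors that rose, *Otx2*, which acts upstream of *Crx*, was at 234, 219 and 219 CPM in WT and 318, 309 and 320.3 CPM in the mutant (0.50 ± 0.041, FDR 1.99e-05). *Prdm1*, the repressor that keeps photoreceptor precursors from becoming bipolar cells, was at 24.4, 25.97 and 28.4 CPM against 43.2, 47.3 and 34.6 CPM (0.66 ± 0.10, FDR 0.00214). *Neurod1* (0.26 ± 0.051, FDR 0.00693) and *Casz1* (0.21 ± 0.049, FDR 0.0204) rose by less. *Nrl* was at 1551, 1419 and 1436 CPM and 1481, 1492 and 1483 CPM, with overlapping groups (FDR 0.833), and *Nr2e3* was at 799.6, 593 and 581 CPM and 674, 676 and 787 CPM, also overlapping (FDR 0.484). *Thrb*, the thyroid hormone receptor of medium-wavelength cones, fell by a small amount (-0.31 ± 0.054, FDR 0.00341).

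The genes called higher were 14. *Kcng1* (2:168085617-168107236), a modifier subunit of voltage-gated potassium channels, was at 2.55, 2.197 and 3.16 CPM in WT and 20.8, 21.5 and 16.3 CPM in *E168d2neo/+* (2.85 ± 0.15, FDR 8.90e-07). *Col4a3* (1:82583496-82718634), a chain of basement-membrane collagen IV, was at 17.1, 15.7 and 13.96 CPM in WT and 85.8, 71.9 and 109.5 CPM in the mutant (2.49 ± 0.13, FDR 8.87e-07). *Col4a4*, its partner chain, starts 72 bases away on the other strand and was at 12.3, 12.6 and 11.5 CPM against 25.95, 28.96 and 46.8 CPM (1.43 ± 0.17, FDR 0.000366). None of these groups overlapped, and in both collagen genes replicate C was the highest mutant library.

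*Shisa2*, an endoplasmic reticulum protein that dampens Wnt and FGF receptors, was at 21.6, 22.8 and 29.4 CPM in WT and 80.8, 85.01 and 71.1 CPM in the mutant (1.69 ± 0.11, FDR 2.75e-06). *Chrnb4*, a nicotinic acetylcholine receptor subunit, was at 7.53, 7.84 and 7.81 CPM against 21.7, 24.7 and 23.8 CPM (1.58 ± 0.078, FDR 5.84e-07). *Rgs22*, a regulator of G-protein signalling, was at 6.19, 5.84 and 5.98 CPM against 15.5, 17.3 and 26.8 CPM (1.67 ± 0.17, FDR 8.69e-05). Also higher were *Alpk2* (1.64 ± 0.19), *Gm1614* (1.60 ± 0.11), *Pdzrn4* (1.45 ± 0.19) and *Marveld2* (1.41 ± 0.23), and then *Bach2*, *Ttyh2*, *Apobec2* and *Fndc1* by 1.27, 1.19, 1.18 and 1.01 in log2. Of the 14, 4 were on the rod-enriched list and 4 on the cone-enriched list.

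**Figure D3:**
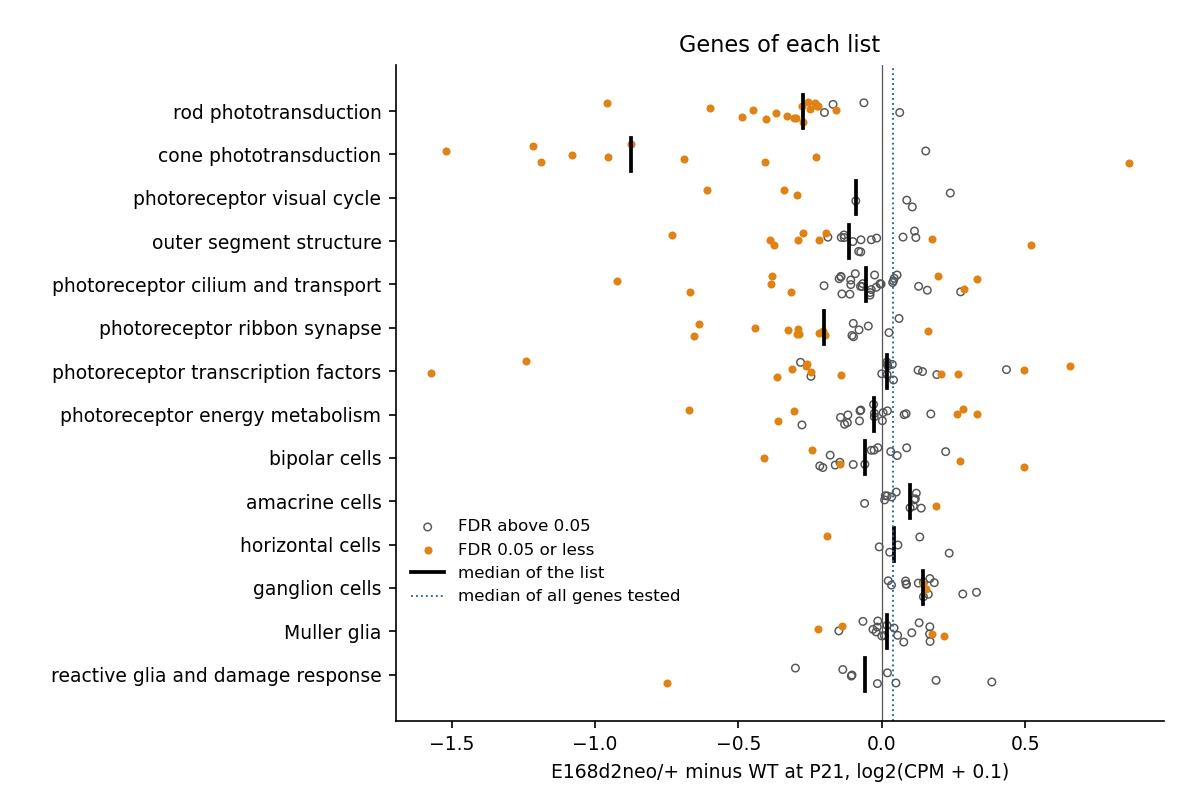
Difference between *E168d2neo/+* and WT at P21 (log2 of CPM + 0.1) for each gene of 14 lists, filled where the FDR is 0.05 or less, with a bar at the median of the list and a dotted line at the median of all genes tested. The median of cone phototransduction lies at -0.87 and that of rod phototransduction at -0.28, while the medians of the other retinal neurons and of glia lie from -0.06 to 0.14.

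Other photoreceptor functions held smaller changes, and the genes named here were chosen after their values were seen. Of 18 ribbon synapse genes 10 fell and 1 rose, with a median of -0.20, among them *Cabp4*, a calcium-binding protein of the photoreceptor terminal (-0.65 ± 0.062, FDR 5.90e-05), and *Elfn1*, the adhesion protein that joins rods to bipolar cells (-0.64 ± 0.084, FDR 0.000676). Of 22 outer segment genes 7 fell and 2 rose, with a median of -0.12. *Fscn2*, an actin-bundling protein, was lower (-0.73 ± 0.11, FDR 0.00133) and *Prom1*, a protein of disc formation, was higher (0.52 ± 0.038, FDR 7.68e-06). In the fit of all P21 genotypes 3 ribbon synapse genes and no outer segment gene were lower, and none and 1 were higher. Of 34 cilium and transport genes 5 fell and 3 rose, with a median of -0.05, and *Myo7a* (-0.92 ± 0.076, FDR 2.08e-05) and *Gpr98* (-0.67 ± 0.044, FDR 3.65e-06), both Usher syndrome genes, were the lowest. Of 23 energy metabolism genes 3 fell and 3 rose, with a median of -0.03.

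In the lists of other retinal neurons and of glia no gene was called at the 2-fold limit. At an FDR of 0.05, 3 of 19 bipolar cell genes fell and 2 rose, with a median of -0.06. Of 13 amacrine cell genes none fell and 1 rose, of 6 horizontal cell genes 1 fell and none rose, and of 15 ganglion cell genes none fell and 2 rose, with medians of 0.10, 0.04 and 0.14. Of the 13 amacrine cell genes 1 was below 0 in log2, and all 15 ganglion cell genes were above 0. After centring on the median ratio the ganglion cell median was 0.11. The study's own markers gave 1 lower and none higher of 6 for horizontal cells, 1 and 1 of 10 for bipolar cells, 1 and none of 10 for amacrine cells, and none either way of 9 for ganglion cells. Of 21 Müller glia genes 2 fell and 2 rose, with a median of 0.02. Of 10 genes of reactive glia and damage 1 fell, *Ednrb*, the endothelin receptor B (-0.75 ± 0.15, FDR 0.00892), and *Gfap*, the filament protein that marks reactive glia, differed by -0.11 ± 0.12 with overlapping groups (FDR 0.619). No microglia gene of 4 tested passed the test, and 1 astrocyte gene of 4 fell.

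Some chaperone genes rose. Of 16 genes of the unfolded protein response and heat shock 8 rose and none fell, with a median of 0.23, and the number that rose was 5 after centring on the median ratio, 10 with the crystallins taken out, 9 without replicate C and 2 with all P21 groups in 1 fit. Over all genes tested 6.36% were higher at an FDR of 0.05. The genes named here were picked after their values were seen. Of those that rose, *Hsph1* (0.39 ± 0.066, FDR 0.00299) and *Hspa8* (0.37 ± 0.074, FDR 0.0087) are cytosolic chaperones. *Hspa5* (0.32 ± 0.062, FDR 0.00698) is the chaperone of the endoplasmic reticulum. Of the 16, 3 were below 0 in log2 and did not pass the test. These were *Hspa1a* (-0.45 ± 0.17, FDR 0.12), *Hspa1b* (-0.51 ± 0.19, FDR 0.105) and *Hsp90aa1* (-0.06 ± 0.035, FDR 0.302). Without WT replicate A 2 of the 16 were lower and 6 higher. No gene of the list reached 2-fold. Of 15 cell death genes 1 fell and 1 rose, of 13 immediate early genes 3 fell and 2 rose, of 22 clock genes 2 fell and 3 rose, of 4 proliferation genes 1 rose, of 14 mitochondrially encoded genes none passed, and of 12 housekeeping genes 1 fell and 2 rose. *Ier3*, an immediate early gene, was the only member of these lists called at the 2-fold limit, at 33.8, 37.6 and 39.02 CPM in WT and 14.1, 13.5 and 15.3 CPM in the mutant (-1.36 ± 0.075, FDR 1.05e-06).

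Cells outside the neural retina were measured with the same test. Of 28 lens genes 11 were in the table, of which 10 were crystallins, and 2 could be tested. *Cryaa* was at 9.32, 5.19 and 5.46 CPM in WT and 1.45, 2.62 and 5304 CPM in the mutant (FDR 0.598), and without replicate C its difference turned to -1.67 (FDR 0.00416). *Cryab* was at 32.9, 34.8 and 37.1 CPM and 30.4, 32.04 and 1856 CPM (FDR 0.365). Every crystallin was at least 50 times higher in replicate C than in any other of the 6 libraries. Of 16 endothelial and mural cell genes 3 fell (none in the fit of all P21 genotypes) and none rose, and the list summed to 962 to 1022 CPM in WT and to 808 to 858 CPM in the mutant. Of 16 pigment epithelium and melanocyte genes 1 fell and 1 rose, of 7 genes of ciliary body, iris and cornea 3 rose, of 6 connective tissue genes 1 fell (3 of 8 without WT replicate A), of 2 muscle genes 1 rose, and of 4 blood genes none passed. The part of these cells in the results was not tested.

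*Krt18*, a keratin on the pigment epithelium list, was at 51.9, 46.1 and 61.3 CPM in WT and 16.2, 14.8 and 15.2 CPM in the mutant (-1.77 ± 0.093, FDR 8.90e-07), and 14 of the 16 genes of that list did not pass the test. This count turned on WT replicate A, the library with little *Xist*. Without it 6 of the 16 were lower, all 6 of them by 2-fold or more, and none was higher, and without replicate C of the mutant as well 6 were lower and 1 higher. The list summed to 1154, 1524 and 1405 CPM in WT and to 1104, 1181 and 1039 CPM in the mutant, so the groups overlapped only through WT replicate A.

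The differences from WT at P21 were set against those at P10, when outer segments are still growing. All 47 of the 66 lower genes that could be tested at P10 had the same sign there, and 29 of these were called. Of the 14 higher genes 13 could be tested, all had the same sign and 4 were called. At P10, 1.06% of the genes tested were called, 0.707% lower and 0.35% higher. The interaction of genotype and age, tested over 12380 genes in the 12 libraries of both ages, passed at an FDR of 0.05 in 757 genes (6.11%), being negative in 2.52% of the genes tested and positive in 3.59%. That count fell to 415 and 440 without *E168d2neo/+* P21 replicates A and B and to 488 and 432 without WT P10 replicates A and B. Among the lower genes the difference from WT was larger at P21 in 26 and smaller in 3, and among the higher genes it was larger in 11 and smaller in none. These counts use the P21 libraries that also made the calls.

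Of the 10 largest falls 6 had a negative interaction at an FDR of 0.05 and were thus farther below WT at P21 than at P10, while *Tnfrsf8*, *Mc1r*, *A930006I01Rik* and *Gm11961* did not pass (FDR 0.645, 0.401, 0.192 and 0.11). *Zan* was at 6.96, 8.56 and 7.82 CPM in WT and 0.96, 0.777 and 0.949 CPM in the mutant at P10 with no overlap, and the interaction of genotype and age was -3.14 ± 0.18 (FDR 2.41e-08). *Aqp1* was at 8.02, 7.05 and 6.54 CPM in WT and 4.16, 4.76 and 4.17 CPM in the mutant at P10 (-3.38 ± 0.16, FDR 8.15e-09). *Selenbp1* was at 5.27, 5.54 and 5.25 CPM and 4.39, 4.402 and 4.25 CPM at P10 (-2.70 ± 0.16, FDR 3.73e-08).

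In these 3 genes the WT level was many times higher at P21 than at P10, while the mutant level at P21 stayed near its level at P10. *Krt18* had the same pattern, with 18.1, 16.8 and 17.4 CPM in WT and 14.9, 17.4 and 15.97 CPM in the mutant at P10, where the groups overlapped (-1.65 ± 0.13, FDR 8.86e-07). Of the 66 lower genes 35 had a WT mean at P21 of 2 times or more that at P10, against 5.07% of all genes tested, and 2 had one lower by 2 times or more. Of the 14 higher genes 7 had a WT mean at P21 lower than that at P10 by 2 times or more, against 2.74% of all genes tested. The WT libraries at P21 are part of both the calls and these ratios.

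**Figure D4:**
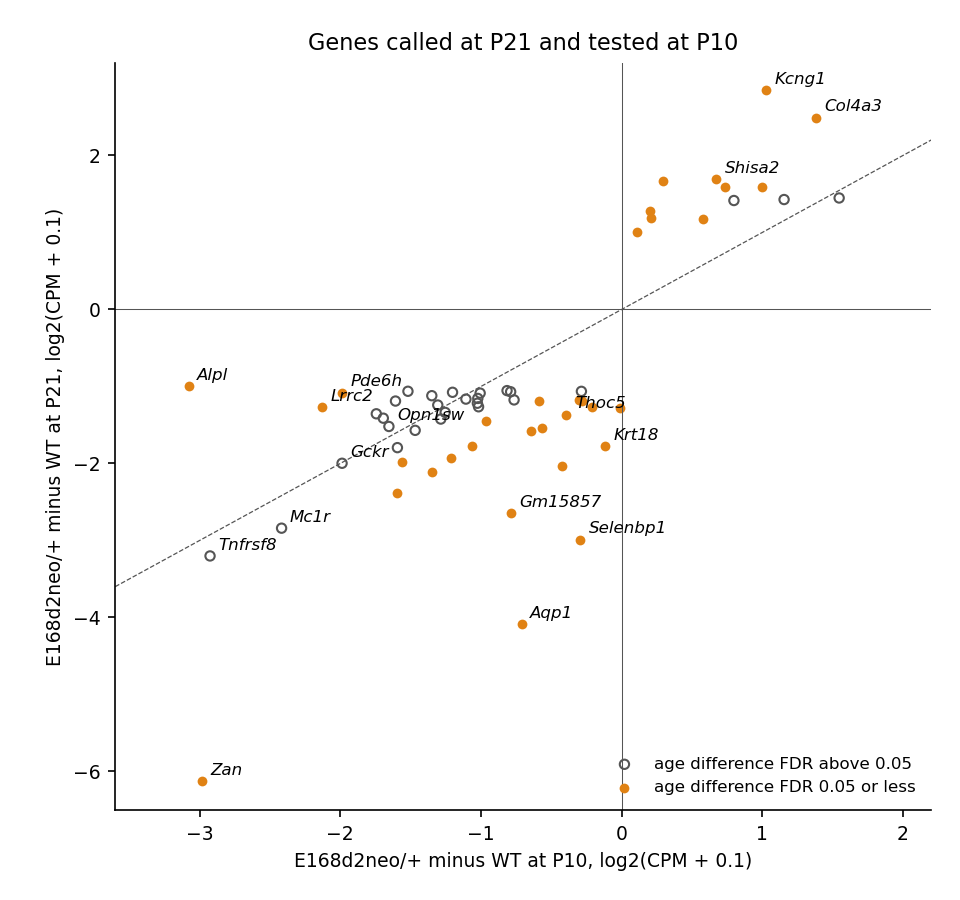
Difference between *E168d2neo/+* and WT at P21 (vertical axis) against that at P10 (horizontal axis), both in log2 of CPM + 0.1, for the called genes that could be tested at P10; filled points have an interaction of genotype and age at an FDR of 0.05 or less and the dashed line marks equal differences. *Zan*, *Aqp1* and *Selenbp1* lie far below the line and *Alpl* lies above it.

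Many phototransduction genes went the other way. Of the 32 rod and cone members together 13 had a positive interaction at an FDR of 0.05, their lower level at P10 being nearer to WT at P21, and 2 had a negative one, *Rgs9* and *Gnb3*. *Gnat1* was at 716, 666 and 626 CPM in WT and 113, 146 and 149 CPM in the mutant at P10 (interaction 2.14 ± 0.12, FDR 1.78e-08). *Guca1b* was at 36.2, 35.02 and 30.8 CPM and 5.48, 3.68 and 3.67 CPM at P10 (interaction 2.50 ± 0.17, FDR 1.39e-07).

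The cone genes differed among themselves in this respect. *Opn1mw* was at 25.9, 25.03 and 21.1 CPM in WT and 5.62, 6.01 and 6.19 CPM in the mutant at P10 (-1.99), and the interaction was 1.04 ± 0.099 (FDR 7.32e-06). *Opn1sw* was at 219.9, 209 and 206 CPM and 70.3, 69.9 and 61.7 CPM at P10 (-1.65), and its interaction of 0.13 ± 0.11 did not pass (FDR 0.526). For *Gnat2* it was -0.19 ± 0.072 (FDR 0.136). The medians of the lists at P10 were -0.61 for rod phototransduction, with 18 of 21 lower, and -1.03 for cone phototransduction, with 8 of 11 lower and 2 higher, where 18.3% of all genes tested passed, 9.5% lower and 8.8% higher.

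*Alpl*, the tissue-nonspecific alkaline phosphatase, had one of the 5 largest positive interactions. It was at 91.03, 85.9 and 94.2 CPM in WT and 9.46, 11.7 and 10.9 CPM in the mutant at P10, and at 169, 191 and 194 CPM and 93.9, 92.01 and 90.2 CPM at P21 (interaction 2.08 ± 0.10, FDR 8.15e-09). *Pax7*, a paired homeobox factor, had the largest (4.24 ± 0.46, FDR 3.06e-05), from 16.5, 17.3 and 17.6 CPM in WT and 0.274, 0.311 and 0.165 CPM in the mutant at P10, and it was below the CPM limit in both groups at P21. *Gm12802* also had a positive one (1.92 ± 0.16, FDR 1.20e-06). Of the negative ones, *Obox6* (-3.14 ± 0.48, FDR 0.00102) was at 0.564, 0.575 and 0.642 CPM in WT and 28.8, 33.2 and 34.4 CPM in the mutant at P10 and was not tested at P21. *Pmel*, a melanosome protein (-2.65 ± 0.62, FDR 0.0195), varied widely between WT libraries at P21, at 32.99, 132 and 149 CPM, where the difference did not pass (FDR 0.141). At P10, 12 of 15 genes of its list, pigment epithelium and melanocytes, were higher in *E168d2neo/+* at an FDR of 0.05, against 8.8% of all genes tested. The interaction was negative in 6 of 16 genes of that list, against 2.52% of all genes tested. The part of pigmented tissue in these values was not tested.

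**Figure D5:**
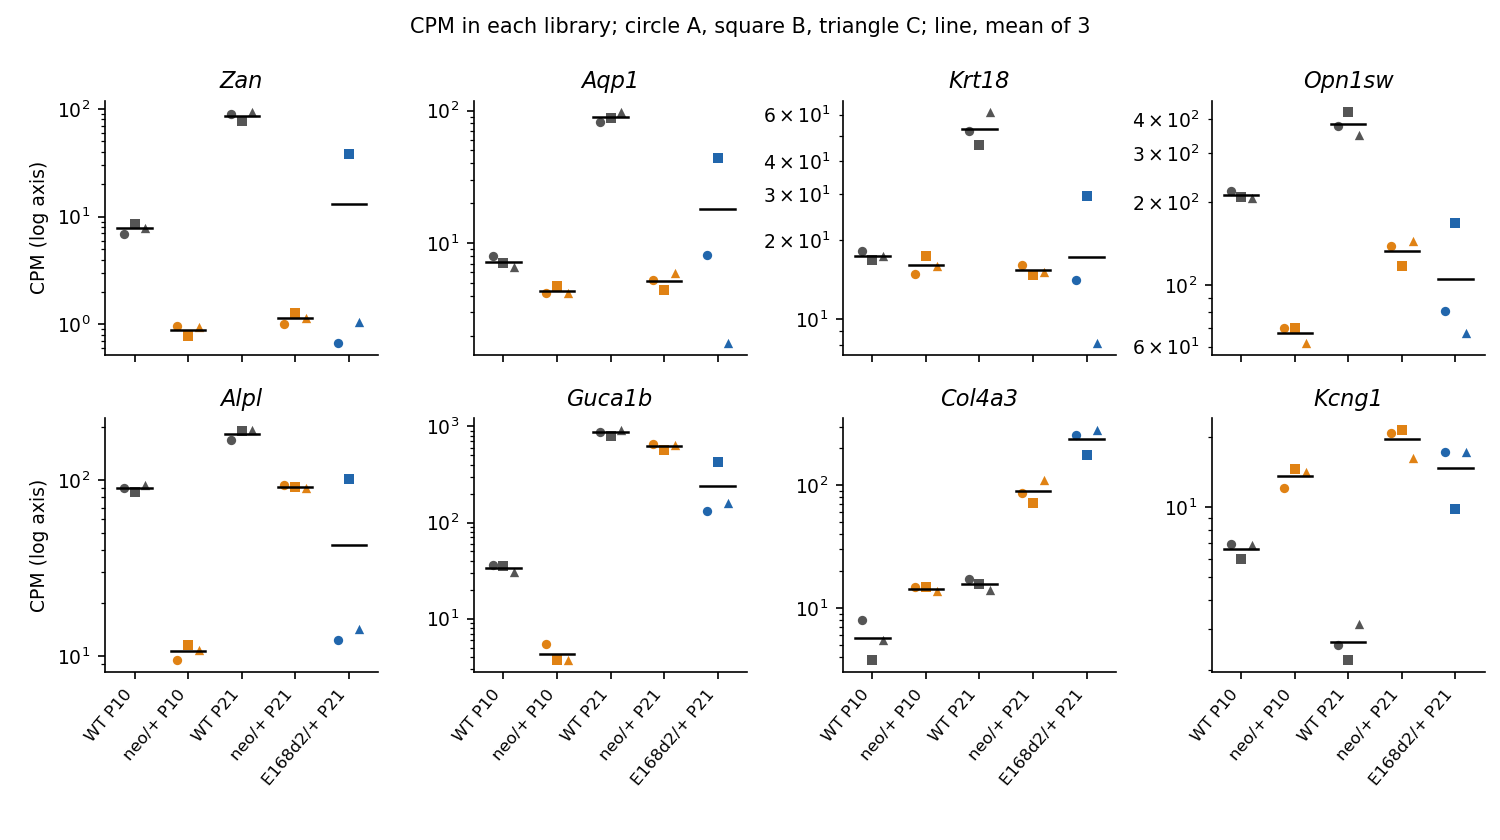
CPM (log axis) of 8 genes in every library of WT and *E168d2neo/+* at P10 and P21 and of *E168d2/+* at P21, with a line at the mean of 3. *Zan*, *Aqp1* and *Krt18* are higher in WT at P21 than at P10 and near their P10 level in *E168d2neo/+*; the *E168d2/+* library drawn as a square lies apart from the other 2 in most panels.

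The 2 lines with the same truncation were compared directly at P21, without WT. In *E168d2/+* replicate B stood apart, lying between its 2 fellow libraries and every WT library in 63 of the 66 lower genes and in 13 of the 14 higher ones. It was nearer to WT than every *E168d2neo/+* library in 61 of the 66 and in 7 of the 14, so values are given with and without it. These shares were not counted over all genes tested. What sets this library apart was not tested. Of 11904 genes tested, 288 differed at an FDR of 0.05 (2.42%), 69 lower (0.58%) and 219 higher (1.84%) in *E168d2/+*, and without replicate B 1725 differed. Leaving out any other library lowered the count, to 8, 12 and 40 without *E168d2neo/+* replicates A, B and C and to 64 and 26 without *E168d2/+* replicates A and C. Of the 66 genes lower in *E168d2neo/+*, 34 could be tested and none differed between the lines, while 23 did without replicate B. The others did not reach the CPM limit in every library of either line, among them *Zan*, *Aqp1* and *Mc1r*. With 2.42% of all genes tested differing, none among 34 says little about whether the lines were alike. The 23 come from a separate fit with its own filter, in which 1725 of 11956 genes differed. Replicates A and C of *E168d2/+* were farther from WT than every *E168d2neo/+* library in 45 of the 66. That count leaves out replicate B after its values were seen, and its share over all genes tested was not counted.

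*Crx* was higher in *E168d2/+*, at 1829.9, 1611 and 1788 CPM (0.62 against *E168d2neo/+*, FDR 0.0091; 0.67 without replicate B, FDR 0.000493). *Col16a1*, a collagen of the fibril-associated kind, had the largest difference, at 7.57, 8.04 and 6.73 CPM in *E168d2neo/+* and 83.5, 54.97 and 103 CPM in *E168d2/+* (3.37, FDR 0.000154; 3.62 without replicate B), and it did not differ detectably between *E168d2neo/+* and WT (FDR 0.332). *Gm13384* (2.79), *Gm16197* (2.34), *Gm12802* (1.93) and *Slc6a2*, the noradrenaline transporter (1.47), were the next highest in *E168d2/+*, and without replicate B their differences were 3.15, 2.58, 2.14 and 1.68. *Col4a3*, called higher in *E168d2neo/+*, was higher still in *E168d2/+*, at 257, 175 and 283 CPM (1.41, FDR 0.0102; 1.62 without replicate B).

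Lower in *E168d2/+* were *Guca1b*, at 132, 428 and 160.4 CPM (-1.57, FDR 0.05; -2.09 without replicate B, FDR 5.97e-06), and *Hk2*, a hexokinase of photoreceptor glycolysis, at 88.6, 191 and 124 CPM against 407, 342 and 257 CPM in *E168d2neo/+* (-1.37, FDR 0.0332; -1.65 without replicate B). *Fscn2* (-1.21), *Faim* (-0.91) and *Gulo* (-0.86) were the next lowest, at -1.60, -1.12 and -0.92 without replicate B. Over all genes tested without replicate B, 502 of 11956 were lower in *E168d2/+* and 1223 were higher, more both ways than with it. For rod phototransduction 1 of 21 genes was lower in *E168d2/+*, and 17 were without replicate B. For cone phototransduction none of 11 was lower and 2 were higher, and without replicate B 8 were lower and 2 higher. *Opn1sw* was at 80.4, 169 and 67.2 CPM, with a difference of -0.46 (FDR 0.328) that became -0.85 without replicate B (FDR 0.00117).

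Promoter sequences were read for the letters of the CRX-type homeodomain site, TAATCC or TAATCT on either strand, in the 250 bases before the start of transcription. Of the 66 lower genes 50 had a promoter in the RefSeq table (GRCm38.p6), and 12 of these (24%) held the letters, as did 1 of 9 higher genes (11.1%), 11.3% of the 8476 genes tested that had one and 14.6% of all 27025 promoters. Among rod phototransduction genes 9 of 14 held them (64.3%) and among cone phototransduction genes 3 of 7 (42.9%). The letters TGCTGA, part of the site of NRL, were in 14 of the 50 (28.0%) and in 14.9% of the genes tested. A match describes letters in the window and was not tested as a site.

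The promoters of 6 genes are shown, 5′ to 3′ on the strand of the gene, with the CRX-type letters in capitals: *Crx* itself, *Opn1sw* and *Gnat2* as cone genes that fell, *Tnfrsf8* and *Kcne2* as other genes that fell with letters near the start, and *Col4a4* as the one higher gene that holds them.
*Crx*, chr7:15879956-15880205, minus strand: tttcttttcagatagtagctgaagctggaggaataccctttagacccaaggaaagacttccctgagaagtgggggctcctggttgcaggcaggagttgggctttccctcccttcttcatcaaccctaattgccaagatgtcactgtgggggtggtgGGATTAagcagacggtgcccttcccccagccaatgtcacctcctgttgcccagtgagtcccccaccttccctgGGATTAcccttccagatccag
*Opn1sw*, chr6:29380514-29380763, minus strand: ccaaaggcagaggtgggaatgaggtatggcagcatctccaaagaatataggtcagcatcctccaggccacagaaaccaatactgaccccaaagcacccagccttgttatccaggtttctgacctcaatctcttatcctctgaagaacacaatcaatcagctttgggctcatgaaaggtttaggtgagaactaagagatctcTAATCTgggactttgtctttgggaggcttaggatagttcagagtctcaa
*Gnat2*, chr3:108092816-108093065, plus strand: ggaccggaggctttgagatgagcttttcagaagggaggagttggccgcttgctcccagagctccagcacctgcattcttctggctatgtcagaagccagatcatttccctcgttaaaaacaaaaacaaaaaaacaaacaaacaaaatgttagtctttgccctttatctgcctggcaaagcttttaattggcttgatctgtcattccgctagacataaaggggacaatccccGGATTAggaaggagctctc
*Tnfrsf8*, chr4:145315165-145315414, minus strand: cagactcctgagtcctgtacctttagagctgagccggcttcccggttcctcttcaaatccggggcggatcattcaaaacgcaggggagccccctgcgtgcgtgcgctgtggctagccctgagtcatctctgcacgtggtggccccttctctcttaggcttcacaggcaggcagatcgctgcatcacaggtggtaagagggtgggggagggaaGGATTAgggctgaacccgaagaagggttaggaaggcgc
*Kcne2*, chr16:92292139-92292388, plus strand: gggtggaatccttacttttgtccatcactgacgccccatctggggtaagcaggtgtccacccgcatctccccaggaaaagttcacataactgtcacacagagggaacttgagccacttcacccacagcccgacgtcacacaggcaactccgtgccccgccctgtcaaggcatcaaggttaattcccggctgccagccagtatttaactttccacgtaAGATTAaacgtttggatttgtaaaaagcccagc
*Col4a4*, chr1:82586850-82587099, minus strand: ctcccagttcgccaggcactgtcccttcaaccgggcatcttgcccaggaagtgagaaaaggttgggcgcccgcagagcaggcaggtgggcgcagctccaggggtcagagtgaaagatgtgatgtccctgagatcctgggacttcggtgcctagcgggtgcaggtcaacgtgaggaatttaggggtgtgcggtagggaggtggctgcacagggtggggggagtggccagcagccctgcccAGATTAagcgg
In *Gnat2* and *Col4a4* the letters begin 19 and 11 bases before the start, in *Opn1sw*, *Tnfrsf8* and *Kcne2* 49, 38 and 33 bases before it, and *Crx* holds them 94 and 21 bases before its own start. *Kcne2*, a potassium channel subunit, was at 59.6, 60.4 and 54.7 CPM in WT and 15.7, 14.2 and 13.9 CPM in the mutant (-1.99 ± 0.067, FDR 5.31e-08). The table has 2 starts for *Kcne2* and 1 for each of the others.

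By position in mm9, 78 of the 80 called genes had a single place in the annotation and lay on 20 chromosomes. Of the 80, 64 were protein coding, 11 were long noncoding RNAs or processed transcripts, which were 2.72% of the genes tested, and 3 were pseudogenes. Within 10 Mb of *Crx* 122 genes were tested, where the region around the targeted locus could differ from C57BL6/J, and none was called, with 8 lower and 7 higher at an FDR of 0.05. Over all genes tested 0.672% were called, and 6.11% were lower and 6.36% higher at an FDR of 0.05. In 6 pairs of called genes the members lay within 100 kb of each other, and in all 6 both members changed the same way. As 66 of the 80 calls were lower, a shared direction by itself says little. The share of such pairs among all genes tested was not counted. *Slc17a3* (-2.47) and *Slc17a4* (-2.20), sodium-phosphate cotransporter genes, lay 37.0 kb apart. In 3 of the pairs the genes overlap, *AA413626* with *Thoc5*, *Gm15513* with *Zfyve28* and *Gm15857* with *Wdr66*, so their reads are uncertain.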

How the data were processed

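Whole-retina RNA was sequenced by the authors from poly(A)-selected or rRNA-depleted RNA; the paper and the sample records name different kits and this was not settled. Per the labels and methods, reads were aligned to mm9 with TopHat2 2.0.5 and counted on genes with HTSeq 0.6.1p1. The authors deposited CPM for 12573 genes, relative to the reads on genes of each library and without a further scaling factor. The deposited table also holds the authors' own comparisons with edgeR 3.6.8: log2 fold changes, mean log2 CPM, p-values and FDRs, none of which were used here. No column of per-sample values was left unused (0). In 20 rows the gene symbol reads as a date, and these rows are given no name.

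CPM were tested in R 4.3.3 with limma 3.58.1 on log2(CPM + 0.1), using two-sided moderated tests (eBayes, trended prior variance) and Benjamini-Hochberg adjustment. The 3 fits were *E168d2neo/+* against WT at P21 (genes at 5 CPM or more in all 3 libraries of either group, called at FDR 0.05 and 2-fold), the interaction of genotype with age, and *E168d2/+* against *E168d2neo/+*, the last 2 called at FDR 0.05 alone. A positive interaction is a difference from WT that is more positive at P21 than at P10. Divided by the step of its library, every value under 1000 reads was within 0.1 of a whole number, as were 94.9% to 99.5% of all values. The text of the paper gives depth as mapped reads, while CPM is relative to the reads on genes. CPM were not turned into counts and no count test was run. Scaling, the added value, the filter, the variance trend, a replicate block, a fit of all P21 groups and leaving out each library were tried as alternatives. The limma step was tested on simulated data. Python 3.11.15, pandas 2.3.3, numpy 2.4.6 and matplotlib 3.10.9 served for tables and plots.

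Replicates are separate pools of retinas. Same-letter deviations correlated at -0.19, 0.04 and -0.15 across genes and did not show pairing by letter. Those of unlike letters ran from -0.05 to 0.19. Deviations from a mean of 3 libraries are tied to each other, so this check cannot decide whether libraries shared a batch. The members and gene lists were chosen with earlier results of these data known. The genes named are the 10 largest falls and 10 largest rises, called genes on the lists, all members of the phototransduction, visual cycle and transcription factor lists (given by values or counts, except 1 rod gene that is counted in its list but not reported here by itself), *Crx*, and the 5 largest differences each way of the other 2 fits; others are said to be chosen after their values were seen. Promoter sequences are from RefSeq (GRCm38.p6) and gene positions from the mm9 annotation.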

Additional observations from a re-analysis of the deposited data

Results flagged for a closer look

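The difference between *E168d2neo/+* and WT was not the same at P10 and P21 in 64 of 145 genes, by limma's interaction of genotype and age at an FDR of 0.05; values are P21 minus P10 in log2. Over all genes tested for the interaction 757 of 12380 passed (6.11%). The 145 are the 80 called genes, the lists of phototransduction, visual cycle and transcription factors, *Crx*, the crystallins, and the genes of the largest differences in the other 2 fits, as far as they were tested at P21. Some were thus picked by this same interaction and others called from the same P21 libraries. Part of the 64 was set by that choice. The difference was more negative at P21 for 31 genes. Of those called lower at P21 these were *Aqp1* (-3.38), *Zan* (-3.14), *Selenbp1* (-2.695), *Gm15983* (-2.098), *Gm15857* (-1.85), *Krt18* (-1.65), *3010001F23Rik* (-1.61), *Olfr1372-ps1* (-1.600), *Traf3ip3* (-1.32), *Klhl3* (-1.27), *Gm7616* (-1.17), *Irf7* (-1.14), *Zfpm1* (-1.06) and *Thoc5* (-0.97). Smaller ones were *Dock8* (-0.97), *AA413626* (-0.96), *Mef2c* (-0.93), *9530082P21Rik* (-0.91), *Plekhg4* (-0.87), *Ramp3* (-0.78), *Wdr66* (-0.76), *Zfyve28* (-0.72), *Gm16862* (-0.71), *Rtn4rl2* (-0.60), *Tnip2* (-0.48) and *Kcne2* (-0.43). Genes that were not called at P21 were *Pmel* (-2.65), *Col16a1* (-2.37), *Rxrg* (-0.58), *Gnb3* (-0.56) and *Rgs9* (-0.25).

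It was more positive at P21 for 33 genes. In rod phototransduction these were *Guca1b* (2.497), *Gnat1* (2.14), *Rcvrn* (1.795), *Slc24a1* (1.35), *Gucy2f* (0.84), *Pde6a* (0.75), *Gucy2e* (0.40), *Cngb1* (0.33) and *Pde6g* (0.30). In cone phototransduction they were *Opn1mw* (1.04), *Pde6h* (0.91) and *Arr3* (0.84). In the visual cycle they were *Rdh8* (0.53), *Rdh11* (0.49), *Rdh12* (0.45) and *Abca4* (0.37). Of the transcription factors they were *Esrrb* (0.65) and *Ankrd33* (0.39).

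Called higher at P21 were *Kcng1* (1.82), *Rgs22* (1.38), *Alpk2* (1.25), *Col4a3* (1.11), *Bach2* (1.07), *Shisa2* (1.02), *Ttyh2* (0.98), *Fndc1* (0.90), *Chrnb4* (0.85), *Apobec2* (0.60) and *Gm1614* (0.60). Called lower at P21 with a positive interaction were also *Alpl* (2.08) and *Lrrc2* (0.86), and *Hk2* (0.87) and *Fscn2* (0.75) were not called. Groups of 3 libraries were too small for a test of single libraries.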

How the results depend on the processing

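In *E168d2neo/+* against WT at P21 the 80 calls ranged from 80 to 103 with a library left out, the lower ones from 66 to 88 and the higher ones from 14 to 18. The higher calls were 24 with a filter of 1 CPM and 24 with no filter. Genes at an FDR of 0.05 were 941 with a replicate block, 591 with all P21 groups in 1 fit, and 868 to 1467 with a library left out, the lowest being 868, 899 and 960 without *E168d2neo/+* replicates B and A and WT replicate B. The age interaction gave 415 to 900 genes with a library left out, with 415 and 440 without *E168d2neo/+* P21 replicates A and B and 488 and 432 without WT P10 replicates A and B. Genes differing between *E168d2/+* and *E168d2neo/+* were 174 after median scaling, 172 after quantile normalization, 110 without a variance trend, 53 with a replicate block, 1096 with all P21 groups in 1 fit, and 8 to 1725 with a library left out, 1725 without *E168d2/+* replicate B, 64 and 26 without its replicates A and C, and 8, 12 and 40 without *E168d2neo/+* replicates A, B and C. *Cryaa* (up to 4.20 with a library left out) turned to -1.67 without *E168d2neo/+* replicate C and to -1.40 without both doubted libraries, an alternative chosen after seeing the data. The causes of the other moves were not tested.

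Of 2361 pairs of a named gene and an alternative, 2272 kept direction and side of the threshold, 77 lost significance, 10 gained it and 2 reversed, and 68 of the 80 called genes kept an FDR of 0.05 and their direction in each. The replicate block, which assumes that equal letters pair libraries, gave 80 calls, all of the main 80, and correlations of same-letter deviations (-0.19, 0.04 and -0.15) did not show pairing. At 5 CPM or 100 to 130 reads, counting error limits the low genes.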
